A study of Mus musculus with 12 samples.

Results

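The mast cell lineage transcription factors described here are 10 genes, *Mitf*, *Gata1*, *Gata2*, *Tal1*, *Spi1*, *Cebpa*, *Cebpb*, *Runx1*, *Ikzf1* and *Zeb2*, taken by gene symbol from a count table of 16234 mouse genes. All 10 were in the table, and all 10 passed the filter on low counts that left 12208 genes for testing. Their RNA was measured in mast cells grown from mouse bone marrow in IL-3 and stem cell factor (BMMCs). The mice were on a C57BL/6N background with a conventional deletion of *Elk4*, which encodes an ETS-family factor that binds DNA together with serum response factor. Cells labelled WT (wild type), HZ (heterozygous) or KO (knockout) were either left untreated (unstimulated) or sensitised overnight with 0.5 μg/ml anti-DNP IgE and given 100 ng/ml DNP-HSA antigen for 1 h (stimulated), which makes 6 groups of 2 libraries. No group was given IgE alone. Below, antigen therefore stands for the IgE and the DNP-HSA together, and their parts in a change cannot be told apart. The WT mice were littermates, animals of both sexes were used, and the cultures were 4 to 8 weeks old with more than 80% of cells positive for both KIT and FcεRI. Whether the 2 libraries of a group came from separate animals was not stated, so the p-values below measure the spread between these libraries, which may be technical.

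Mast cells are formed from marrow progenitors under a small set of factors that other blood lineages also use in other proportions. GATA2, TAL1 and RUNX1 act together on shared enhancers in progenitors, and mast cells keep high GATA2 where erythroid cells replace it with GATA1. MITF, a basic helix-loop-helix leucine zipper factor, drives genes for KIT, granule proteases and histamine synthesis. PU.1, the product of *Spi1*, and C/EBPα, the product of *Cebpa*, serve the myeloid branches, and C/EBPα is known to be shut off as progenitors become mast cells and to favour basophils. C/EBPβ is the C/EBP member that signalling induces quickly in many myeloid cells. Ikaros, encoded by *Ikzf1*, and ZEB2 are zinc finger factors that repress and activate lineage genes.

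Promoter letters were examined because the members were seen to respond to antigen in opposite directions. RefSeq promoters (build GRCm38.p6) were found for 9 of the 10 genes, with 18 start sites in all, and *Spi1* had no entry. The 250 bases before each start were searched on both strands. The motifs were CCGGAAG, which ETS proteins such as the ELK factors bind, and the CArG box of serum response factor. For AP-1 the letters were TGANTCA. For CREB and ATF factors they were TGACGTCA and, more loosely, its part TGACG, so that each full match also counts as a match to the part. For GATA factors AGATAA was used. For MITF the E-boxes were CACGTG and also CATGTG. The regions below are those of the member with the widest response (*Cebpb*), its relative near the detection limit (*Cebpa*), the most abundant member (*Gata2*, the first of its start sites by position), and the start sites of *Zeb2* and *Mitf* that hold AP-1 and CREB/ATF letters. Each is written 5′ to 3′ along the gene, and capitals mark a match to any of these motifs.
*Cebpb*, chr2:167688665-167688914, plus strand: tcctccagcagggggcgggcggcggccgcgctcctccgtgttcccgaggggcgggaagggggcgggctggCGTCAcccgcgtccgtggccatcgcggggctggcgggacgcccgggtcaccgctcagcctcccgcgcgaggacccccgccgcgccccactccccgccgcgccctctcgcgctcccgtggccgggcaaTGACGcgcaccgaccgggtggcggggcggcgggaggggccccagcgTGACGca
*Cebpa*, chr7:35119043-35119292, plus strand: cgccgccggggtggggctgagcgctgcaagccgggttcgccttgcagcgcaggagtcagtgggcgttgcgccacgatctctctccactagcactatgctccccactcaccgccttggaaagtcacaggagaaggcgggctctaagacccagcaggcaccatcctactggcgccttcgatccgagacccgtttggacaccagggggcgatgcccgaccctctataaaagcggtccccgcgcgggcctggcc
*Gata2*, chr6:88193641-88193890, plus strand: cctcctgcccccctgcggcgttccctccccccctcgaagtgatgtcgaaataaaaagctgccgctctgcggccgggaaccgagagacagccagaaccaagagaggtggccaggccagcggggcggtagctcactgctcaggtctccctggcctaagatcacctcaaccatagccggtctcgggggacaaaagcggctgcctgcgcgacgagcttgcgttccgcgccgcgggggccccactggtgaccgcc
*Zeb2*, chr2:45110278-45110527, minus strand: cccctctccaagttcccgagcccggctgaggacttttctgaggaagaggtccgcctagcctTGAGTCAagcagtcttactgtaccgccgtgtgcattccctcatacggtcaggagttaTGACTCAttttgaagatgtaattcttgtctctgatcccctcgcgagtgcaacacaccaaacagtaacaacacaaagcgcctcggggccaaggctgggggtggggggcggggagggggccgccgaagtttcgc
*Mitf*, chr6:97991533-97991782, plus strand: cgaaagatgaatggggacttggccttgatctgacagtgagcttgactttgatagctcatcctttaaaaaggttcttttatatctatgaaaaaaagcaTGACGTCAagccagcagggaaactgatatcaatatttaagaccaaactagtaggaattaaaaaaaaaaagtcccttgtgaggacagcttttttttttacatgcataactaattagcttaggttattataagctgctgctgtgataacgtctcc

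The *Cebpb* region was 81.6% G and C and held TGACG in 3 places, which start 180, 53 and 7 bases before the start site when counted along the gene. Matches to TGACG were in 5 of the 18 member regions, and 17.8% of 32851 promoters of the same length held a match. Among the 5 are overlapping *Zeb2* regions that share the same match. TGACG was added after the letters were seen, so this share is a description and no test. The *Zeb2* region held TGANTCA at 189 and at 132 bases before the start, and was the only one of the 18 with this motif, which 6.75% of all promoters held. The *Mitf* region held TGACGTCA at 153 bases before the start (1.55% of all promoters) and was the only region of the 18 with it. That region was shown for its match, and the other *Mitf* start sites held none of the motifs. Of the other motifs, CACGTG was found in 1 *Runx1* region (6.02% of all promoters) and AGATAA in 1 *Tal1* region (9.99%). CCGGAAG, the CArG box and CATGTG were in none of the 18 regions, and in 6.91%, 1.47% and 12.3% of all promoters. Counts per gene do not show which start site was in use.

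Library totals ran from 29697958 to 35531667 counts, and the replicates of a group differed by more than sampling noise in each of the 6 groups (chi-square per degree of freedom 2.93 to 5.70). Without antigen, *Elk4* counts were 2426 and 2740 under the WT label, 3238 and 2837 under HZ, and 2613 and 2253 under KO. Counts summed over a whole gene cannot separate a deleted part from the rest, so *Elk4* did not check the genotype labels. The libraries fitted the labelled cell type: *Cpa3*, *Kit*, *Fcer1a* and *Ms4a2* each had at least 41007 counts in every library. Of the neutrophil list, *S100a8*, *S100a9*, *Ltf* and *Mpo*, and of the monocyte and macrophage list *Csf1r*, had at most 23 counts in any library. Other genes of these lists were present in every library. *Ctsg* had 649 to 10750 counts, *Cx3cr1* 947 to 4248, *Lyz2* 131 to 432 and *Adgre1* 98 to 209. Of the neutrophil list, 7 of 9 genes were in the table and *Ctsg* made up 99.8% of its sum, which was 305 to 307 CPM (counts scaled to library size) in unstimulated WT libraries, 42.3 to 44.4 in HZ and 20.2 to 22.1 in KO. The sum of the 9 monocyte and macrophage genes, 80.8% of it *Cx3cr1*, was 128 to 132, 81.0 to 82.0 and 65.0 to 66.9 CPM in the same groups. Other genes of that list went the other way, with *Lyz2* higher than WT in unstimulated HZ (log2 1.26, adjusted p = 5.40e-09) and KO (1.35, adjusted p = 1.01e-09) and *Adgre1* higher in HZ (0.72, adjusted p = 0.00243). The megakaryocyte and erythroid sum, 99.7% of it *Itga2b*, was 1699 to 1743 CPM in unstimulated WT, 2421 to 2428 in HZ and 1700 to 1706 in KO, and antigen left it at 1514 to 1538 in HZ. The basophil sum, 98.4% of it *Cd200r3*, was 596 to 601, 673 to 674, and 470 to 473 CPM in the unstimulated groups. *Mcpt8* of that list ran the other way in KO, with means of 5.13, 5.88 and 8.11 CPM. Of the 4 basophil genes, 1 was higher and 1 lower in unstimulated KO than in WT at an adjusted p under 0.05 in edgeR (22.9% and 21.7% of all genes). Progenitor genes, 84.6% of the sum being *Cd34*, summed to 842 to 855, 749 to 759, and 606 to 621. Most of the others did not follow *Cd34*. Of the 4 tested, 3 were higher and 1 lower than WT in unstimulated HZ by the same threshold (25.4% and 26.0% of all genes). In KO 2 were higher and 1 lower (22.9% and 21.7%), and *Cd34* was the lower one in both. The part of any of these sums in the differences between genotype labels given below was not tested. In bulk RNA, fewer cells of a type and less RNA per cell cannot be told apart.

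Levels of different genes were compared on FPKM, which divides by gene length. *Gata2* was the most abundant member in every group, with a median of 376 FPKM over the 12 libraries, which placed it 8th among the 1132 genes that carry a transcription factor family in the table. *Tal1* followed with a median of 123 FPKM. *Cebpb* had 91.0, *Runx1* 85.6, *Spi1* 54.0 and *Gata1* 52.4 FPKM. *Ikzf1* (36.3), *Zeb2* (25.2) and *Mitf* (13.3) lay lower, and *Mitf* was 159th of the 1132. *Cebpa* was near the detection limit at a median of 0.0725 FPKM and stood 803rd. In unstimulated WT libraries no neighbours in this order overlapped, although *Spi1* at 57.8 and 61.2 FPKM and *Gata1* at 56.5 and 57.6 nearly touched. *Cebpb* changed place with antigen, from 49.7 and 51.5 FPKM, below *Spi1* and *Gata1*, to 130 and 143, above *Tal1* at 106 in both libraries.

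**Figure D1:**
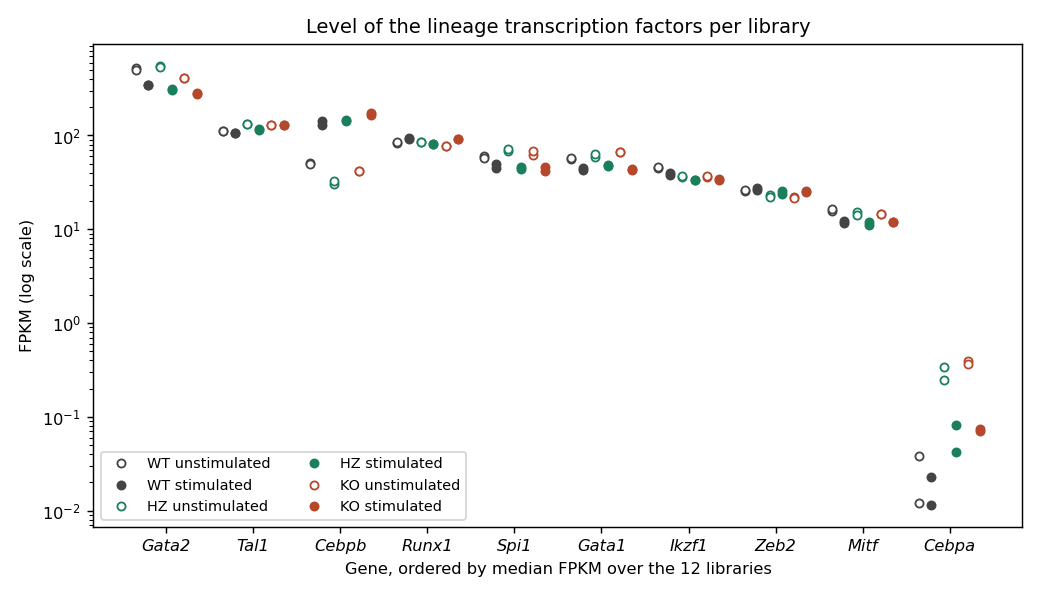
FPKM of the 10 genes in each of the 12 libraries on a log axis, ordered by median; open points are unstimulated and filled points stimulated libraries, coloured by genotype label. *Gata2* lies highest in every library, *Cebpa* stays below 0.4 FPKM, and *Cebpb* is the abundant member with the widest spread.

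Antigen raised *Cebpb* in all 3 genotype labels and lowered *Gata2* in all 3. A member counts as passed below at an adjusted p under 0.05 (quasi-likelihood test in edgeR, p-values adjusted by Benjamini and Hochberg's method). In WT cells 7 of the 10 members passed, where 45.3% of all genes tested did. Of the 7, 5 were higher and 2 lower, against 22.4% and 22.9% of all genes. In HZ cells 9 members passed (64.4% of all genes), 4 higher and 5 lower (32.9% and 31.6%). KO cells also had 9 past the threshold (40.8% of all genes), 5 of them higher and 4 lower (20.4% and 20.5%). With so many genes past the threshold in each label, these counts of 10 members are a description, and they were not tested against all genes. A change of at least 2-fold was rarer: 1 member in WT (*Cebpb*; 6.77% of all genes), 2 in HZ (*Cebpb* and *Cebpa*; 14.3%) and the same 2 in KO (6.61%). *Cebpa* passed the low-count filter only through unstimulated HZ and KO libraries, and without it 7, 8 and 8 of the other 9 members passed.

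Many directions among the smaller changes depended on the scaling of the libraries. The values used the trimmed mean of M-values (TMM), which assumes that most genes hold still. Unstimulated libraries had TMM factors of 1.08 to 1.12, whereas stimulated ones had 0.902 to 0.924. Scaling to library totals alone moved the median of all genes by -0.31 on the log2 scale in WT, -0.23 in HZ and -0.29 in KO. Under library totals the WT count became 2 higher and 6 lower, HZ 2 higher and 8 lower, and KO 3 higher and 6 lower, with 67.5%, 68.4% and 66.8% of all genes past the threshold. Changes that reverse under library totals are named below, and every stimulation value is relative to the median gene. Genotype comparisons at one treatment shifted by less than 0.05.

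**Figure D2:**
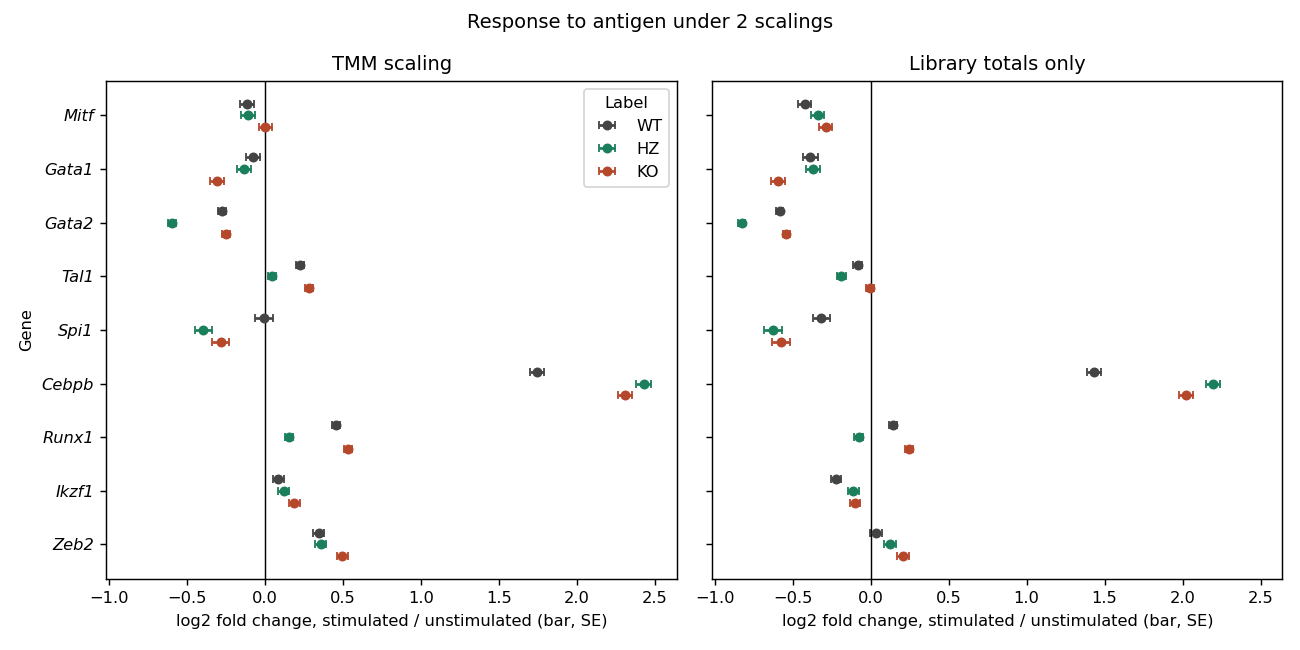
Log2 fold change with antigen (x axis; bars, SE from the fit) of 9 members in WT, HZ and KO cells, with TMM scaling on the left and library totals on the right. *Cebpb* lies far to the right and *Gata2* to the left of zero in both panels, while *Tal1* and *Ikzf1* are above zero on the left in all 3 labels and below zero on the right; *Cebpa* is left out for its low counts.

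*Cebpb* encodes C/EBPβ, a basic leucine zipper activator of cytokine and acute-phase genes. In WT cells it was at 70.0 and 67.2 TMM-scaled CPM without antigen and at 219 and 240 with it. The HZ libraries held 42.7 and 45.9 before and 234 and 242 after, and the KO libraries 56.9 and 57.6 before and 291 and 277 after. Every stimulated library was thus far above every unstimulated one. The rise was 3.35-fold in WT (log2 fold change 1.74, SE 0.04, adjusted p = 2.78e-34), 5.38-fold in HZ (2.43, SE 0.05, adjusted p = 1.31e-39) and 4.95-fold in KO (2.31, SE 0.05, adjusted p = 2.56e-39), and under library totals it was 1.43, 2.20 and 2.02. Among 847 transcription factor genes tested, this rise ranked 38th from the top in WT, 30th in HZ and 29th in KO. The larger rises began from lower unstimulated levels: *Cebpb* was at 64.5% of WT in unstimulated HZ (log2 -0.63, SE 0.05, adjusted p = 3.58e-15) and at 83.5% in unstimulated KO (log2 -0.26, SE 0.05, adjusted p = 1.35e-05). After antigen, KO was 1.24 times WT (log2 0.31, SE 0.04, adjusted p = 2.66e-08), whereas HZ and WT libraries overlapped (0.05, SE 0.04, adjusted p = 0.351). *Cebpb* overlaps *Tmem189* on the opposite strand, and the strand setting of the counting was not given in the sources used here, so reads of the pair cannot be told apart. *Tmem189* itself lay between 58.5 and 75.6 CPM in all 12 libraries and its log2 change with antigen was 0.18 in WT, 0.12 in HZ and -0.02 in KO.

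*Cebpa*, whose product C/EBPα drives granulocyte and basophil genes, was scarcely detected. WT libraries had 3 and 1 counts unstimulated and 1 and 2 stimulated. HZ libraries had 29 and 20 counts unstimulated and 4 and 7 stimulated, and KO libraries 35 and 31 unstimulated and 6 and 6 stimulated. The unstimulated HZ and KO libraries therefore stood above all others, at under 1 CPM. Against unstimulated WT, the depth-scaled ratio of summed counts was 15.4 in KO (95% interval 5.74 to 58.2, exact, counting error only) and 12.3 in HZ (4.52 to 47.0). Both differences passed (adjusted p = 0.000182 and 0.000582), but the gene reached the test through these libraries alone. With antigen, counts fell by a ratio of 4.27 in KO (interval 2.29 to 8.67, adjusted p = 0.0163) and 4.10 in HZ (2.11 to 8.75, adjusted p = 0.0156). The KO fall no longer passed when any 1 of the 4 KO libraries was left out (adjusted p up to 0.114), and the HZ fall did not pass without unstimulated replicate 1 (0.108) or stimulated replicate 1 (0.161).

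**Figure D3:**
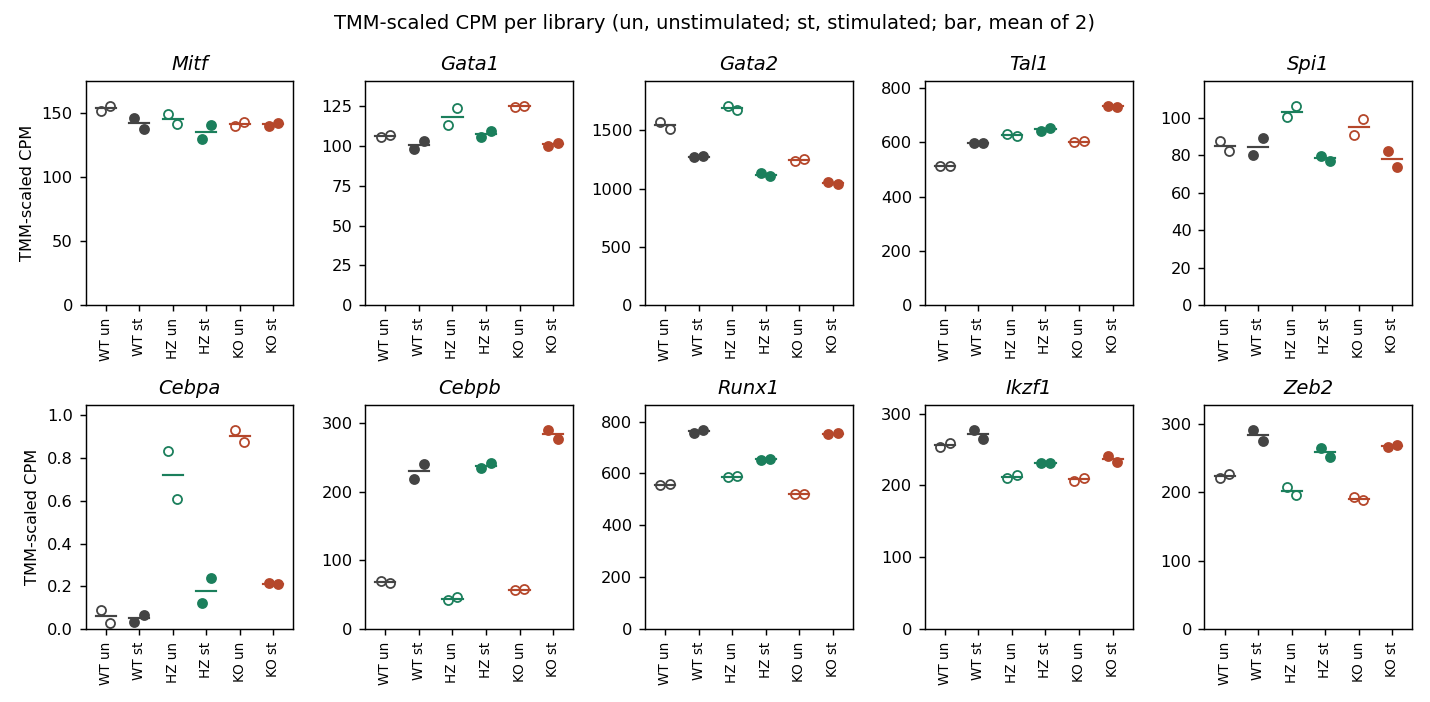
TMM-scaled CPM of each of the 10 genes in every library (points) with the mean of the 2 libraries of a group (bars); un, unstimulated, and st, stimulated, coloured by genotype label. The 2 libraries of a group lie close together for most genes, *Cebpb* rises in each label, *Gata2* falls in each, and *Cebpa* stays under 1 CPM.

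*Gata2* encodes the zinc finger factor that holds progenitors and mast cells in their state. Its unstimulated level was 1575 and 1510 CPM in WT, 1709 and 1678 in HZ, with 1237 and 1255 in KO. After antigen it was 1269 and 1279 in WT, 1130 and 1112 in HZ, with 1058 and 1036 in KO. Stimulated libraries were below unstimulated ones of the same label without overlap, and KO was lowest in both states. The fall was to 82.6% in WT (log2 -0.28, SE 0.02, adjusted p = 1.39e-13), 66.2% in HZ (-0.60, SE 0.02, adjusted p = 3.82e-26) and 84.0% in KO (-0.25, SE 0.02, adjusted p = 2.94e-12), and it was larger under library totals (-0.58, -0.83 and -0.54). Against WT, unstimulated KO was at 80.8% (adjusted p = 4.07e-15) while unstimulated HZ was 1.10 times higher (adjusted p = 5.35e-06), so HZ and KO lay on opposite sides of WT. After antigen both were lower than WT, HZ at 88.0% (adjusted p = 2.09e-08) and KO at 82.2% (adjusted p = 9.13e-14). Stimulated KO was at 93.4% of stimulated HZ (adjusted p = 0.00162), a call that was lost without stimulated KO replicate 2 (adjusted p = 0.0527).

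*Gata1*, the relative of *Gata2* that dominates in erythroid cells and megakaryocytes, stood at 106 and 107 CPM in unstimulated WT, 113 and 124 in HZ, with 125 in both KO libraries. With antigen the values were 98.0 and 104 in WT, 106 and 110 in HZ, with 99.9 and 102 in KO. Before antigen both HZ and KO were above WT, while KO and HZ did not pass against each other (log2 0.077, adjusted p = 0.167). After antigen no pair of labels passed (adjusted p = 0.101 for HZ against WT, 0.952 for KO against WT and 0.153 for KO against HZ). Unstimulated KO was 1.18 times WT (log2 0.23, SE 0.05, adjusted p = 3.06e-05), and unstimulated HZ 1.11 times WT (0.16, SE 0.05, adjusted p = 0.00355), the latter lost without unstimulated HZ replicate 2 (0.08, adjusted p = 0.208). Antigen lowered *Gata1* to 80.9% in KO (adjusted p = 3.14e-07) and to 91.0% in HZ (adjusted p = 0.00867), where the call was lost without unstimulated replicate 2 (adjusted p = 0.298) or stimulated replicate 1 (adjusted p = 0.0992). In WT the log2 change of -0.08 did not pass (adjusted p = 0.177), although under library totals it was -0.39 and did.

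*Tal1* encodes a basic helix-loop-helix partner of GATA factors, and *Runx1* the DNA-binding subunit of core-binding factor. *Tal1* read 512 and 513 CPM in unstimulated WT, 631 and 624 in HZ, with 599 and 604 in KO. Stimulated WT read 598 and 599, HZ 641 and 654, and KO 734 and 731. WT was the lowest label in both states, with no overlap. Unstimulated HZ was 1.23 times WT (log2 0.29, SE 0.03, adjusted p = 2.69e-13) and unstimulated KO 1.17 times (0.23, SE 0.03, adjusted p = 3.82e-10), and after antigen KO was 1.22 times (adjusted p = 5.52e-13) and HZ 1.08 times WT (adjusted p = 0.000594). The change with antigen was 0.22 in WT (adjusted p = 9.64e-10), 0.04 in HZ (adjusted p = 0.138) and 0.28 in KO (adjusted p = 8.98e-13), but under library totals it was -0.084, -0.19 and -0.0049. The direction of the response of *Tal1* thus turned with the scaling in every label, while its genotype differences did not.

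*Runx1* lay at 554 and 560 CPM in unstimulated WT, 587 and 590 in HZ, with 520 and 521 in KO. Stimulated libraries held 756 and 769 in WT, 653 and 656 in HZ, with 752 and 756 in KO. It was higher after antigen in every label, by 1.37-fold in WT (log2 0.45, SE 0.03, adjusted p = 6.50e-20), 1.45-fold in KO (0.53, SE 0.03, adjusted p = 1.22e-22) and 1.11-fold in HZ (0.15, SE 0.03, adjusted p = 1.60e-06). Under library totals the rise was 0.14 in WT and 0.24 in KO, but the HZ change was -0.078. Stimulated HZ was at 85.8% of stimulated WT (adjusted p = 1.80e-09), and stimulated KO and WT libraries overlapped (log2 -0.02, SE 0.03, adjusted p = 0.670). Before antigen KO was at 93.5% of WT (adjusted p = 0.00213), and HZ was 1.06 times WT (adjusted p = 0.0109), which was lost without unstimulated WT replicate 1 (adjusted p = 0.0693) or unstimulated HZ replicate 2 (adjusted p = 0.0657) and under library totals (adjusted p = 0.373).

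*Mitf* varied least of the 10, with group means within 1.14-fold of each other. Unstimulated WT read 152 and 156 CPM, HZ 150 and 142, and KO 140 and 143. Stimulated WT read 147 and 138, HZ 130 and 141, and KO 140 and 143. The drop with antigen was to 92.3% in WT (log2 -0.11, SE 0.04, adjusted p = 0.0243) and 92.7% in HZ (-0.11, SE 0.04, adjusted p = 0.0237). Neither call was firm: the WT call was lost without unstimulated replicate 2 (adjusted p = 0.218) or stimulated replicate 2 (0.305), and the HZ call without unstimulated replicate 1 (0.257) or stimulated replicate 1 (0.440). In KO the 2 states overlapped (log2 0.0011, SE 0.04, adjusted p = 0.989), but library totals gave -0.29 there, -0.42 in WT and -0.34 in HZ. Unstimulated KO was at 91.9% of WT (adjusted p = 0.0156), a call lost without unstimulated WT replicate 2 (0.134) or unstimulated KO replicate 1 (0.111).

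*Spi1* encodes PU.1, an ETS-family factor of myeloid and B cells. It was at 87.8 and 82.5 CPM in unstimulated WT, 100 and 106 in HZ, with 90.7 and 99.6 in KO. With antigen it was at 80.2 and 89.1 in WT, 79.9 and 77.2 in HZ, with 82.5 and 73.7 in KO. The fall in HZ was to 76.0% (log2 -0.40, SE 0.06, adjusted p = 2.97e-08) and in KO to 82.1% (-0.29, SE 0.06, adjusted p = 4.23e-05), while the WT libraries of the 2 states overlapped (-0.01, SE 0.06, adjusted p = 0.922). Library totals gave a fall that passed in WT as well (-0.32). Unstimulated HZ was 1.21 times WT (adjusted p = 3.05e-05), and unstimulated KO 1.12 times (adjusted p = 0.0157), the KO call being lost without unstimulated WT replicate 2 (adjusted p = 0.178) or unstimulated KO replicate 2 (adjusted p = 0.301).

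*Ikzf1* encodes Ikaros, a zinc finger factor of lymphoid cells. The unstimulated level was 253 and 259 CPM in WT, 210 and 215 in HZ, with 205 and 211 in KO, and the stimulated level 278 and 265, 231 and 231, and 241 and 233. WT was the highest label in each state and did not overlap the others. HZ was at 83.0% of WT before antigen (adjusted p = 5.04e-09) and 85.0% after (adjusted p = 2.83e-07), and KO at 81.4% before (adjusted p = 5.08e-10) and 87.4% after (adjusted p = 8.96e-06). The log2 change with antigen was 0.09 in WT (adjusted p = 0.0388), 0.12 in HZ (adjusted p = 0.00251) and 0.19 in KO (adjusted p = 1.45e-05), and under library totals it became -0.22, -0.11 and -0.10. The WT call was also lost without unstimulated WT replicate 1 (adjusted p = 0.203) or stimulated WT replicate 1 (adjusted p = 0.356).

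*Zeb2* encodes a homeodomain zinc finger factor of myeloid and lymphoid maturation, and its promoter letters include the AP-1 matches given above. Unstimulated libraries had 221 and 226 CPM in WT, 207 and 196 in HZ, with 192 and 188 in KO. Stimulated libraries had 292 and 276, 265 and 252, and 267 and 270. *Zeb2* was higher with antigen in all 3 labels, by 1.27-fold in WT (adjusted p = 3.34e-11), 1.28-fold in HZ (adjusted p = 5.61e-12) and 1.41-fold in KO (adjusted p = 3.41e-16). Under library totals the log2 rise was 0.12 in HZ and 0.21 in KO, and 0.03 in WT, where it did not pass (adjusted p = 0.410). Unstimulated KO was at 85.0% of WT (adjusted p = 5.12e-07) and unstimulated HZ at 90.2% (adjusted p = 0.000548). Stimulated HZ was at 91.0% of WT (adjusted p = 0.00235), lost without stimulated WT replicate 1 (adjusted p = 0.114) or stimulated HZ replicate 2 (adjusted p = 0.0982).

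Without antigen, 9 of the 9 members other than *Cebpa* passed between KO and WT by the same test, where 44.6% of all genes tested did. *Gata1*, *Tal1* and *Spi1* were the 3 higher ones (22.9% of all genes) and the other 6 were lower (21.7%). These differences were small, from 81% to 118% of WT, and none reached 2-fold (7.51% of all genes). In unstimulated HZ 8 of the same 9 passed against WT (51.4% of all genes), 5 higher (25.4%) and 3 lower (26.0%), with none past 2-fold (9.15%). *Cebpa*, which reached the test through these HZ and KO libraries alone, was higher and past 2-fold in both, and *Mitf* in HZ, at 94.8% of WT, did not pass (adjusted p = 0.126). Counting *Cebpa*, 10 members passed in KO and 9 in HZ. These counts were 8 to 10 and 7 to 9 with 1 library left out. With another method, limma on log2(FPKM + 1), which left *Cebpa* out, 7 and 6 passed. Between unstimulated KO and HZ 3 members passed (45.2% of all genes), none of them past 2-fold (3.36%). *Cebpb* was higher in KO (1.29-fold, adjusted p = 2.94e-08; 23.4% of all genes were higher), and *Gata2* (73.6%, adjusted p = 1.89e-20) and *Runx1* (88.5%, adjusted p = 2.54e-07) were lower (21.8%). That count was 5 without unstimulated HZ replicate 2. After antigen, 4 members passed between KO and WT (40.4% of all genes), with *Cebpb* and *Tal1* higher (21.2%) and *Gata2* and *Ikzf1* lower (19.2%). Between HZ and WT 5 passed (34.9%), with *Tal1* higher (18.4%) and *Gata2*, *Runx1*, *Ikzf1* and *Zeb2* lower (16.5%). Between KO and HZ 4 passed (24.9%), with *Cebpb*, *Runx1* and *Tal1* higher (12.9%) and *Gata2* lower (12%). None of these comparisons of stimulated libraries held a member past 2-fold by the test (7.76%, 4.51% and 2.10% of all genes). *Tal1* and *Ikzf1* kept their side of WT in both labels and both states, as the plot of genotype differences shows.

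**Figure D4:**
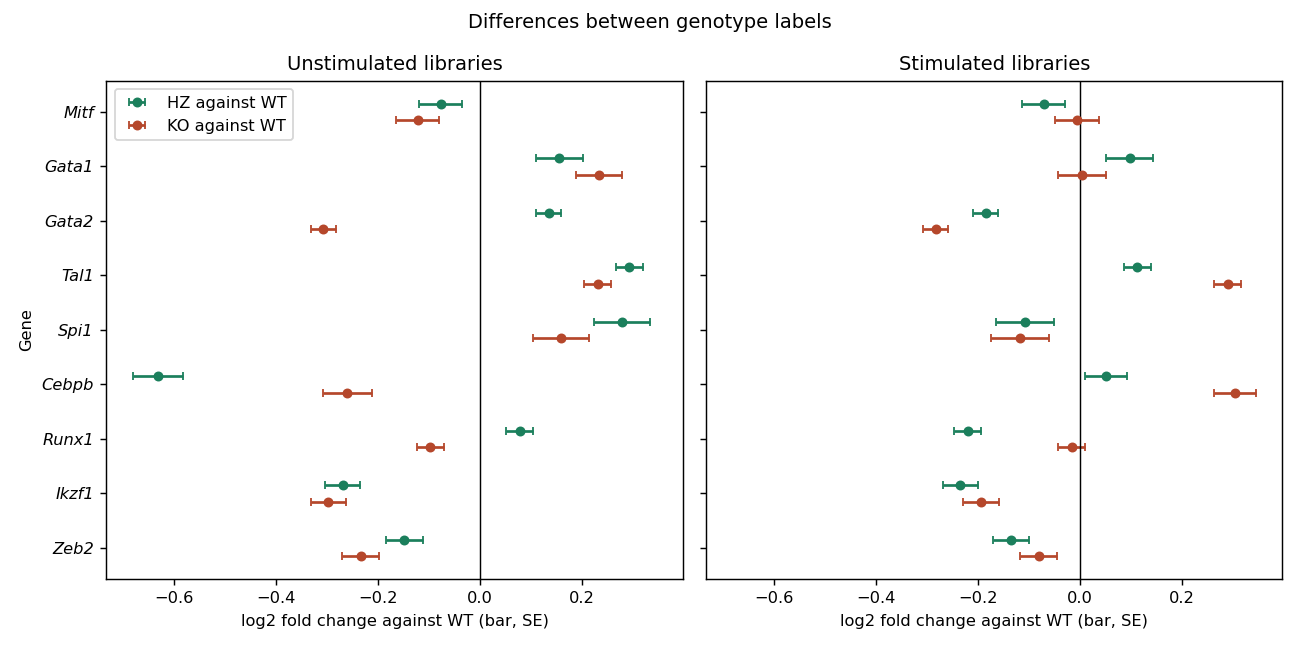
Log2 difference from WT (x axis; bars, SE from the fit) of 9 members in HZ and KO cells, unstimulated on the left and stimulated on the right. *Tal1* lies above and *Ikzf1* below zero in both panels and both labels, *Gata2* and *Runx1* in HZ and *Cebpb* and *Spi1* in both labels change side between the panels (stimulated *Spi1* in both labels and stimulated *Cebpb* in HZ did not pass), and *Cebpa* is left out for its low counts.

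The size of the antigen response was compared between labels with an interaction term in the same fit. For KO against WT, 4 of the 10 members passed, where 9.27% of all genes tested did, 2 with a more positive response (5.44%) and 2 with a more negative one (3.83%), none past 2-fold (0.704%). *Cebpb* rose more in KO by 0.57 on the log2 scale (SE 0.06, adjusted p = 2.37e-09). *Gata1* (-0.23, adjusted p = 0.0180), *Spi1* (-0.28, adjusted p = 0.0181) and *Zeb2* (0.15, adjusted p = 0.0479) were near the threshold, and each was lost when any of at least 4 of the 8 libraries was left out (highest adjusted p = 0.131, 0.192 and 0.288). The count of 4 became 2 without unstimulated WT replicate 1, unstimulated WT replicate 2, stimulated KO replicate 1 or stimulated KO replicate 2, and 1 without stimulated WT replicate 2 or unstimulated KO replicate 2. For HZ against WT, 5 members passed (38.5% of all genes), 1 more positive (19.9%) and 4 more negative (18.6%), none past 2-fold (5.99%). *Cebpb* rose more in HZ by 0.68 (SE 0.06, adjusted p = 2.63e-12), and *Gata2* fell more by 0.32 on the log2 scale (SE 0.03, adjusted p = 8.21e-11). *Spi1* (-0.39, adjusted p = 8.18e-05), *Runx1* (-0.30, adjusted p = 4.32e-09) and *Tal1* (-0.18, adjusted p = 0.000107) also responded less positively in HZ. These comparisons share the WT libraries, and under library totals the same members passed with the same signs.

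Ratios of 2 members within a library do not depend on the scaling. The FPKM ratio of *Cebpb* to *Gata2* went from 0.0982 and 0.0983 to 0.381 and 0.415 in WT, from 0.0552 and 0.0604 to 0.458 and 0.481 in HZ, and from 0.101 and 0.102 to 0.590 and 0.607 in KO. Antigen thus shifted the balance of these factors in every label without overlap. The ratio of *Gata2* to *Tal1*, which act on shared sites, averaged 4.59 ± 0.14 (SD, n = 2) in unstimulated WT, 4.12 ± 0.02 in HZ and 3.16 ± 0.02 in KO, and 3.25 ± 0.02, 2.64 ± 0.07 and 2.18 ± 0.03 after antigen. It was lower after antigen in each label and lowest in KO in each state. *Gata2* to *Gata1* stood at 9.03 ± 0.36 in unstimulated WT and 8.91 ± 0.68 in HZ, whose libraries overlapped, and at 6.20 ± 0.04 in KO. After antigen it was 7.87 ± 0.26 in WT, 6.47 ± 0.23 in HZ and 6.45 ± 0.20 in KO, with the HZ and KO libraries overlapping. *Mitf* to *Zeb2* fell with antigen from 0.617 to 0.449 in WT, from 0.649 to 0.471 in HZ and from 0.667 to 0.473 in KO. No test was run on these ratios.

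**Figure D5:**
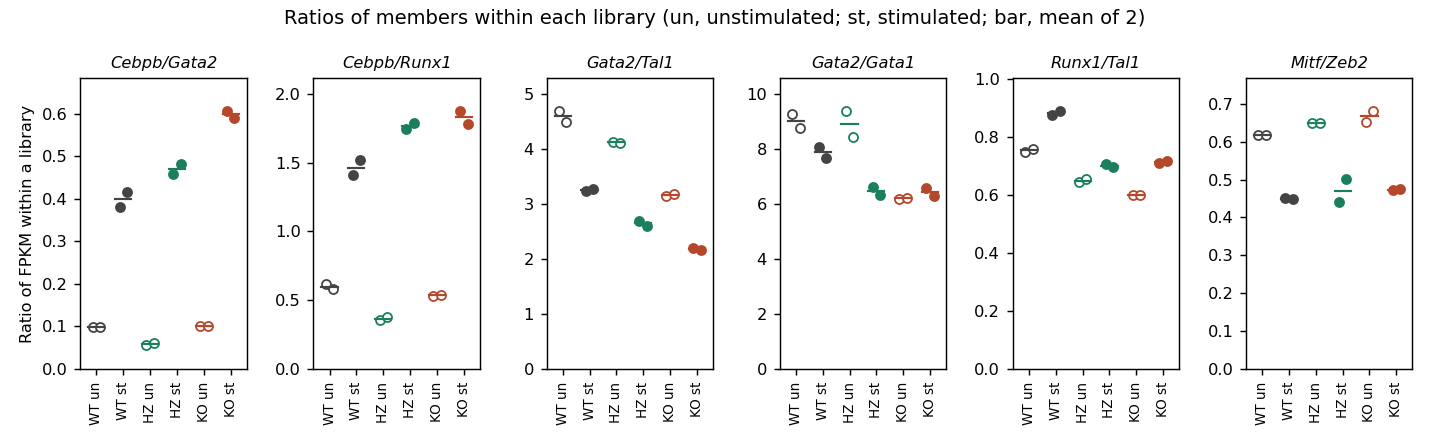
Ratio of FPKM between pairs of members within each library (points) with the mean of the 2 libraries of a group (bars); un, unstimulated, and st, stimulated, coloured by genotype label. *Cebpb* gains on *Gata2* and *Runx1* with antigen in every label, and *Gata2* loses on *Tal1* in every label, with the lowest ratio in KO in each state.

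Paralogues and partners of the members were read from lists chosen with earlier results known. Of 18 paralogues, 17 were in the table and 12 were tested; in WT 3 were higher and 4 lower with antigen (22.4% and 22.9% of all genes), in HZ 4 and 6 (32.9% and 31.6%), and in KO 4 and 4 (20.4% and 20.5%), with medians of 0.02, -0.06 and -0.03 on the log2 scale against -0.01, -0.0048 and -0.0068 over all genes. Under library totals the paralogue counts became 0 and 8, 1 and 6, and 2 and 7. Lower calls then also outnumbered higher ones over all genes tested (842 and 7397, 2447 and 5902, and 858 and 7296). *Lyl1*, the closest relative of *Tal1*, fell in each label, from 77.7 ± 0.7 to 45.7 ± 1.7 CPM in WT (log2 -0.77, adjusted p = 2.90e-17), by 1.08 in HZ and by 0.68 in KO. Its direction was thus opposite to the TMM-scaled change of *Tal1*. *Runx2*, a paralogue of *Runx1* best known from bone, was at 9.63 ± 0.85 CPM in unstimulated WT, 1.57 ± 0.46 in HZ (log2 -2.61, adjusted p = 1.71e-13) and 1.80 ± 0.20 in KO (-2.41, adjusted p = 1.20e-12). *Gata3*, the T cell member of its family, was higher than WT in unstimulated HZ (0.80, adjusted p = 0.000368) and KO (0.66, adjusted p = 0.00322).

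Of 24 partners and co-regulators, 23 were tested, and with antigen 6 were higher and 8 lower in WT (22.4% and 22.9% of all genes), 6 and 10 in HZ (32.9% and 31.6%), with 7 and 8 in KO (20.4% and 20.5%). Under library totals these counts became 1 and 15, 4 and 14, and 0 and 16, where over all genes tested they were 842 and 7397, 2447 and 5902, and 858 and 7296. *Gfi1*, a zinc finger repressor that opposes PU.1, fell from 23.6 ± 1.7 to 9.48 ± 0.93 CPM in WT (log2 -1.32, adjusted p = 3.01e-14), by 1.16 in HZ and by 1.19 in KO. Its relative *Gfi1b*, a partner of GATA1 in erythroid cells, dropped from 42.5 ± 1.7 to 10.1 ± 0.3 CPM in HZ (-2.07, adjusted p = 5.71e-22), with -0.66 in WT and -0.96 in KO. *Id3*, an inhibitor of the E proteins that pair with TAL1, fell by 1.63 in WT, 1.27 in HZ and 2.25 in KO. *Cbfa2t3*, a corepressor in TAL1 complexes, was lower in stimulated WT (144 ± 11 against 250 ± 1 CPM, log2 -0.80, adjusted p = 2.75e-22), with -0.14 in HZ and -0.40 in KO. Other genes of the list, named here after their values were seen, went the other way under TMM scaling. *Id2*, also an inhibitor of E proteins, changed by 0.46 in WT, 0.61 in HZ and 0.14 in KO, and *Etv6*, an ETS-family repressor, by 0.24, 0.44 and 0.20. The list's median changes were 0.04, -0.06 and -0.03. Between labels, *Id3* was higher than WT in unstimulated KO (24.2 ± 2.8 against 5.38 ± 0.41 CPM, adjusted p = 3.55e-18) and HZ (13.8 ± 0.6, adjusted p = 1.99e-11), and *Gfi1b* was too (21.5 ± 0.3 in KO and 42.5 ± 1.7 in HZ against 10.3 ± 1.8). *Lmo4*, a LIM-only adaptor, was lower than WT in stimulated KO (-1.11, adjusted p = 3.20e-18) and HZ (-0.91, adjusted p = 2.39e-15).

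Of 17 mast cell effector genes, known targets of these factors among them, 15 were in the table and all 15 were tested. In WT 11 were higher and 3 lower with antigen (22.4% and 22.9% of all genes), in HZ 5 and 10 (32.9% and 31.6%), and in KO 7 and 3 (20.4% and 20.5%). Under library totals the counts became 4 and 10, 2 and 11, and 4 and 10. Lower calls then also outnumbered higher ones over all genes tested (842 and 7397, 2447 and 5902, and 858 and 7296). *Hdc*, the histidine decarboxylase that makes histamine, rose from 126 ± 7 to 1111 ± 7 CPM in WT (log2 3.14, adjusted p = 8.76e-48), from 109 ± 7 to 436 ± 6 in HZ and from 17.0 ± 0.1 to 303 ± 18 in KO. It was lower than WT in KO both before (-2.89, adjusted p = 2.08e-40) and after antigen (-1.87, adjusted p = 2.23e-38). *Ndst2*, needed for heparin sulphation, fell in WT (-0.66), HZ (-1.11) and KO (-0.38). Without antigen, 12 of the 15 were higher and 1 lower in HZ than in WT (25.4% and 26.0% of all genes), and 10 higher and 2 lower in KO (22.9% and 21.7%), among the higher ones *Mcpt4*, a chymase (52.6 ± 0.3 in HZ and 27.5 ± 1.1 in KO against 18.7 ± 0.8 CPM), and *Cd63*, a granule membrane protein (0.54 in HZ and 0.82 in KO). The response differed from WT in 14 of the 15 in HZ, all 14 less positive, where 18.6% of all genes were called in this direction. That count was 12 under library totals, and the median difference was -0.31 against 0.0059 over all genes.

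The profile over the 6 groups was compared with 9849 other genes by the root mean square difference of centred log2 group means, and is given for *Cebpb* and *Gata2*, from the 3 members with the widest range. Nearest to *Cebpb* were *Cish* (0.0925), which encodes an inhibitor of STAT5 signalling, *Nedd9* (0.0976), an adhesion scaffold, and *Zc3h12c* (0.125), a zinc finger protein of the regnase family. *Cish* went from 379 to 1478 CPM in WT, from 267 to 1377 in HZ and from 308 to 1539 in KO. For *Gata2* the nearest were *Nr2c2* (0.0330), a nuclear receptor, *Chst12* (0.0466) and *Galnt6* (0.0467), a pair of Golgi enzymes. With 6 group means per gene, such likeness is a description.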

How the data were processed

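The authors deposited raw counts per gene and FPKM values for 12 libraries. Per the labels' processing notes, reads were handled with fastp, HISAT2 and HTSeq on build GRCm39, and versions and the strand setting were not given in the sources used here. The deposited FPKM values equalled counts divided by library total and one length per gene, so FPKM was used for levels between genes only. Counts were tested with edgeR 4.0.16 (R 4.3.3): filterByExpr, TMM factors, one mean per group over all 12 libraries, quasi-likelihood tests for 11 comparisons, and Benjamini-Hochberg adjustment over 12208 genes. The biological coefficient of variation was 4.01%. CPM values use TMM-scaled totals. Alternatives used DESeq2 1.42.0 and limma 3.58.1 on log2(FPKM + 1). Steps were tested on simulated data. The members and gene lists were chosen with earlier results of these data known, and TGACG was added after the promoter letters were seen. Besides the 10 members, the named genes were, per list and comparison, up to 4 with the largest change among those past the threshold, not overlapping between the groups and averaging 100 counts or more in the higher one. The labels use the same replicate numbers with and without antigen, but whether same-numbered libraries share a culture was not stated. The main fit did not pair them. Results that need certain genes are not reported here.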

Additional observations from a re-analysis of the deposited data

Results flagged for a closer look

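The response to antigen differed between genotype labels, by an interaction term in edgeR's fit, for 4 of the 10 members in KO against WT (9.27% of all genes) and 5 in HZ against WT (38.5%). Against WT, the KO response was larger by 0.57 for *Cebpb* and by 0.15 for *Zeb2*, and lower for *Gata1* (-0.23) and *Spi1* (-0.28), on the log2 scale. The KO calls of *Gata1*, *Spi1* and *Zeb2* were each lost when any of at least 4 of the 8 libraries was left out, and the count of 4 was 1 to 4 with 1 library left out. Against WT, the HZ response was larger by 0.68 for *Cebpb* and lower for *Gata2* (-0.32), *Spi1* (-0.39), *Runx1* (-0.30) and *Tal1* (-0.18). For *Cebpb*, the unstimulated and not the stimulated level separated HZ from WT, since stimulated HZ libraries (234 and 242 CPM) overlapped those of WT (219 and 240). For *Gata2*, HZ was above WT before antigen and below it after. Sums of markers of other cell types are given with the library totals in the report, and their part in these differences was not tested.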

How the results depend on the processing

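Of the alternative values for single members, 1489 stayed on their side of the threshold, 75 lost the call and 37 gained one. Another 32 turned sign while passing in the main fit, the alternative or both. Values that passed in neither fit are among the 1489 whatever their sign. *Gata1* is an example, with a response in HZ minus that in WT of -0.059 in the main fit and 0.018 under library totals. All 32 were stimulation values under library totals or under limma on FPKM, which keeps library totals as its scale: *Tal1* (in WT -0.084 under library totals or a pseudocount of 0.1 and -0.083 with a pseudocount of 1, -0.19 in HZ, and -0.0049 in KO), *Ikzf1* (-0.22 in WT; -0.11 in HZ; -0.10 in KO), *Runx1* in HZ (-0.078, or -0.077 with a pseudocount of 1) and *Mitf* in KO (-0.29, or -0.27 with a pseudocount of 1). Requiring a 2-fold change left 1, 2 and 2 members called with antigen in WT, HZ and KO, 1 and 1 in unstimulated KO and HZ against WT, and 0 in the other 6 comparisons. The calls in unstimulated KO and HZ, and 1 of the 2 with antigen in HZ and in KO, were of *Cebpa*. That gene reached the test through unstimulated HZ and KO libraries alone. The 3 calls between unstimulated KO and HZ became 5 with DESeq2, 6 with DESeq2 size factors, 5 with at least 10 counts in every library and 5 with a replicate block, and 3 to 5 with 1 library left out. The 4 calls for the KO response against WT became 1 with limma on log2(FPKM + 1) or log2(FPKM + 0.1), 1 at an adjusted p below 0.01, and 1 to 4 with 1 library left out. The cause of these differences in counts was not tested. Same-numbered libraries did not deviate together (correlations of -0.03 in WT, 0.08 in HZ and -0.0034 in KO over 9192 genes), and the block moved no other count by over 1.5 times. Whether same-numbered libraries share a culture cannot be read from these correlations. With 2 libraries a group, changes of about 0.1 on the log2 scale sat at the threshold, and *Cebpa*, at 1 to 35 counts, allows only wide intervals.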

Other observations

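Progenitor genes, fixed as a list of 7 with all 7 in the table, also differed between labels. *Cd34*, a surface sialomucin of progenitors and cultured mast cells, was lower than WT (757 ± 14 CPM, SD, n = 2) in unstimulated HZ (631 ± 7, edgeR adjusted p = 1.98e-11) and KO (490 ± 12, adjusted p = 3.30e-24). *Mecom*, a zinc finger factor of stem cells, was higher in unstimulated HZ (38.6 ± 0.7, adjusted p = 6.98e-12) and KO (37.7 ± 0.3, adjusted p = 2.95e-11) than in WT (22.1 ± 1.9). *Hlf*, another stem cell factor, was higher in unstimulated HZ alone among the comparisons that passed (14.2 ± 0.5 against 7.20 ± 1.9 CPM in WT, adjusted p = 4.37e-07), and KO stood at 7.29 ± 0.55.

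Of the 847 transcription factor genes tested, 124 were higher and 389 lower with antigen in WT, where over all genes 2733 were higher and 2797 lower. In HZ the split was 174 and 445 (4011 and 3853 over all genes), and in KO 142 and 343 (2485 and 2498). Under library totals it was 64 and 608, 116 and 540, and 81 and 566, where over all genes it was 842 and 7397, 2447 and 5902, and 858 and 7296. Of the members, under TMM scaling, 5 were higher and 2 lower in WT. For HZ the numbers were 4 and 5, against 5 and 4 for KO, and no test of members against the other transcription factor genes was made.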
